A study of Homo sapiens with 6 samples.

Results

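The expression of 10 genes of the Notch pathway was followed in onvansertib-resistant and parental H526 cells. The genes were listed by name, with earlier results of these data known, and are the receptors *NOTCH1*, *NOTCH2* and *NOTCH3*, the ligands *DLL1*, *DLL3*, *DLL4*, *JAG1* and *JAG2*, and the targets *HES1* and *HEY1*, out of 62710 genes in the deposited table. H526 is a human small cell lung cancer (SCLC) line, and onvansertib inhibits the mitotic kinase PLK1. The parental group was the H526 line in growth medium with 5% fetal bovine serum. The resistant group was derived from it by growth for more than a year in onvansertib raised from 10 nM to 75 nM. The paper does not state whether onvansertib was present when the RNA was taken. Effects of the drug itself and of resistance therefore cannot be told apart. Both groups have 3 RNA-seq libraries, numbered 1 to 3 (parental) and 7 to 9 (resistant), from RNA taken at separate times. Nothing in the labels names separate derivations of resistance or says whether the resistant cells are a single clone, so p-values measure the spread between RNA extractions, which may be technical.

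Notch receptors are cut on the cell that carries them when a ligand on a neighbouring cell binds and pulls. The freed intracellular part enters the nucleus, joins the DNA-binding protein RBPJ and a Mastermind coactivator, and turns on genes such as *HES1* and *HEY1*, which encode transcriptional repressors. In neuroendocrine SCLC, Notch activity is known to oppose the neuroendocrine program, and DLL3, an atypical ligand that acts on Notch in the same cell rather than on a neighbour, is known as a surface antigen of these tumours.

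The depth of the libraries, read from the step of 1 read in the low values, was between 22360536 and 28506596 reads. The values are gene counts that the authors normalized with DESeq2, so they are called normalized values here and are not whole reads. The 16347 genes whose mean over the 6 libraries reached 10 were tested as log2(value + 1) with limma and Benjamini-Hochberg adjustment. The log2 fold change on that scale (log2FC, resistant minus parental) understates the change of low genes. *POU2F3*, the defining factor of the tuft cell-like SCLC subtype, was at 25809 ± 1178 in parental and 27273 ± 535 (SD, n = 3) in resistant libraries, while *NEUROD1* did not exceed 5.49. *YAP1*, which marks a further subtype, rose from 48.9 to 111 (limma adjusted p = 0.0024). Of 8 tuft cell markers 4 rose, among them *TRPM5* with a log2FC of 1.77 and *CHAT* with one of 1.72, and 3 fell, *AVIL* with one of -0.80, *KIT* with one of -0.61 and *ASCL2* with one of -0.47. Of 7 tested neuroendocrine markers 6 fell in resistant cells, and *INSM1* went from 6091 ± 571 to 1253 ± 114 (SD, n = 3). Of the markers of other cell types, 3 of 5 immune, 4 of 5 endothelial and 1 of 6 fibroblast genes were at or under the value of 3 reads in every library, and *CD3E* and *CDH5* were listed at 0.

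All 10 genes passed the filter on low values. In resistant cells *DLL1* and *DLL3* fell, *NOTCH3* rose, and the other 7 genes were not past the threshold of an adjusted p under 0.05 by limma. That is 3 of 10 genes, where 37.7% of all genes tested passed the same threshold. Of all genes tested 17.8% were higher and 19.8% lower, against 1 and 2 of the 10. A log2FC past the threshold and of at least 1 in size was found for 1 of the 10 genes, *DLL1*, and for 9.95% of all genes tested. The parental and resistant ranges were apart for 4 of the 10 genes, and for 49.9% of all genes tested. The median log2FC of the 10 genes was 0.04 and that of all genes tested was -0.00086. The share of the 10 genes past the threshold was thus near or below that of all genes. For a single gene in this design the smallest two-sided p of an exact permutation test is 0.10, which *NOTCH3*, *DLL1*, *DLL3* and *HEY1* reached.

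**Figure D1:**
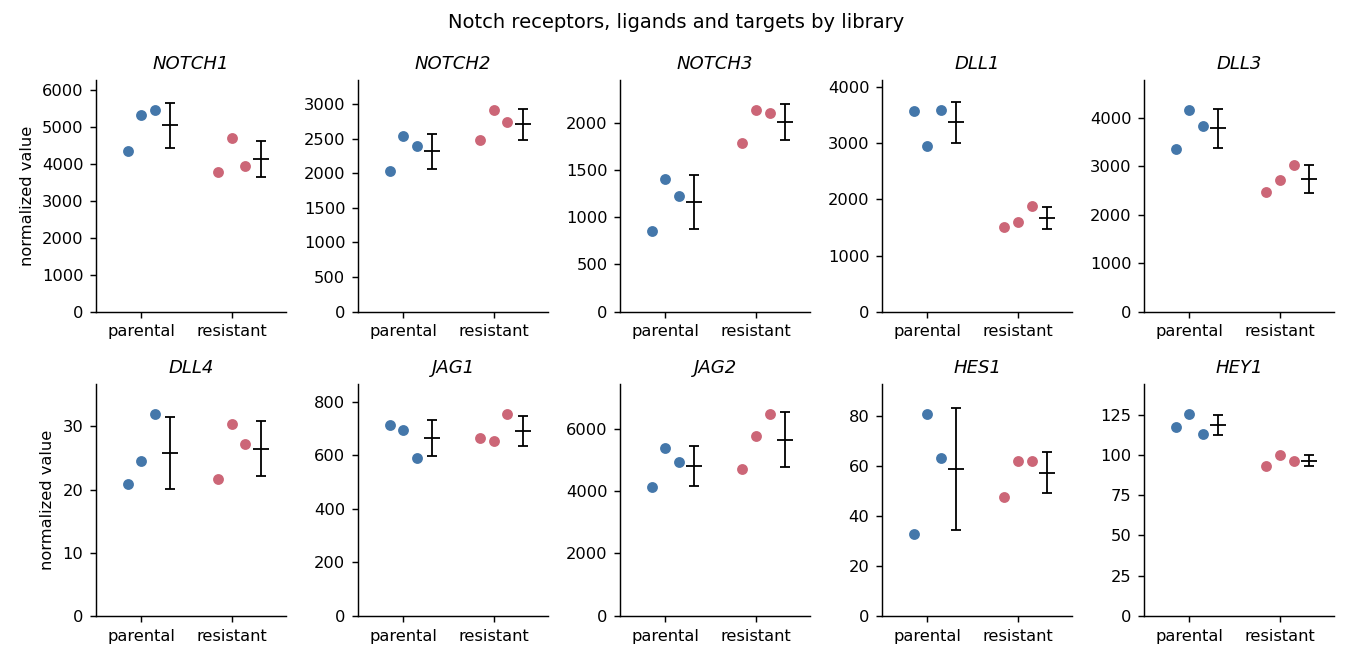
Normalized value (y axis, linear, from 0) of each of the 10 genes in the 3 parental (blue) and 3 resistant (red) libraries, in the order 1, 2, 3 and 7, 8, 9, with the group mean and SD in black. The groups are apart for *NOTCH3*, *DLL1*, *DLL3* and *HEY1* and overlap for the other 6 genes.

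Among the ligands, *DLL1* (ENSG00000198719), a canonical ligand that activates Notch on neighbouring cells, had the largest change of the 10 genes. It lies on the long arm of chromosome 6 of GRCh38, from 170282206 to 170306565. Its normalized values were 3571, 2956 and 3593 in parental libraries 1, 2 and 3 and 1510, 1601 and 1891 in resistant libraries 7, 8 and 9. Every resistant library lay below every parental library. The mean fell from 3373 ± 362 to 1667 ± 199 (SD, n = 3), so that the resistant mean was 49.4% of the parental one. The log2FC was -1.02 (standard error (SE) 0.10, limma adjusted p = 5.2e-05). *DLL1* shares 370 exon bases, 9.69% of its exons, with *FAM120B* on the other strand. Read pairs that lie wholly within that stretch can be told apart only by strand. The kit name in the labels does not include a directional version, and the strand setting of the counting is not given in the sources used here. *FAM120B* did not pass the threshold, with a log2FC of -0.09 (limma adjusted p = 0.432).

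*DLL3* (ENSG00000090932, chromosome 19, 39498895 to 39508481) had normalized values of 3363, 4157 and 3821 in the parental and 2461, 2724 and 3028 in the resistant libraries. The groups did not overlap, although the highest resistant and the lowest parental library were close. The mean fell from 3780 ± 399 to 2738 ± 284 (SD, n = 3), a log2FC of -0.47 (SE 0.10, limma adjusted p = 0.0039). *DLL3* RNA in resistant cells was thus 72.4% of the parental level. In the same libraries the 8 neuroendocrine markers summed to between 11969 and 13429 in parental and between 4704 and 5320 in resistant cells. Their part in the fall of *DLL1* and *DLL3* was not tested. In bulk RNA, fewer cells that express a gene and less RNA per cell cannot be told apart.

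The Jagged ligands were not past the threshold. *JAG2* (ENSG00000184916, chromosome 14, 105140982 to 105168824) had normalized values of 4119, 5377 and 4919 in parental and 4696, 5774 and 6460 in resistant libraries. The groups overlapped, and the log2FC was 0.23 (SE 0.12, limma adjusted p = 0.17). The gene passed without resistant library 7, with a log2FC of 0.35 (limma adjusted p = 0.038). Around *JAG2*, 37 neighbouring genes tested had a median of 0.51, and after the median shift of its neighbours was taken off, the log2FC of *JAG2* was -0.19 (limma adjusted p = 0.27).

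*JAG1* (ENSG00000101384, chromosome 20, 10637684 to 10673999) lay between 589 and 714 in parental and between 654 and 754 in resistant libraries, with a log2FC of 0.06 and a 95% interval from -0.18 to 0.29. *DLL4* (ENSG00000128917, chromosome 15, 40929340 to 40939073), known best from vessel sprouting, was low, between 20.8 and 31.9 in parental and between 21.7 and 30.4 in resistant libraries. Its log2FC was 0.05 with an interval from -0.67 to 0.76, so a change of either sign of about that size was not detectable at this level. In the same libraries 4 of 5 endothelial markers, *PECAM1* and *CDH5* among them, were at or under the value of 3 reads, while *VWF* rose from 276 ± 54.5 to 465 ± 22.0 (SD, n = 3).

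**Figure D2:**
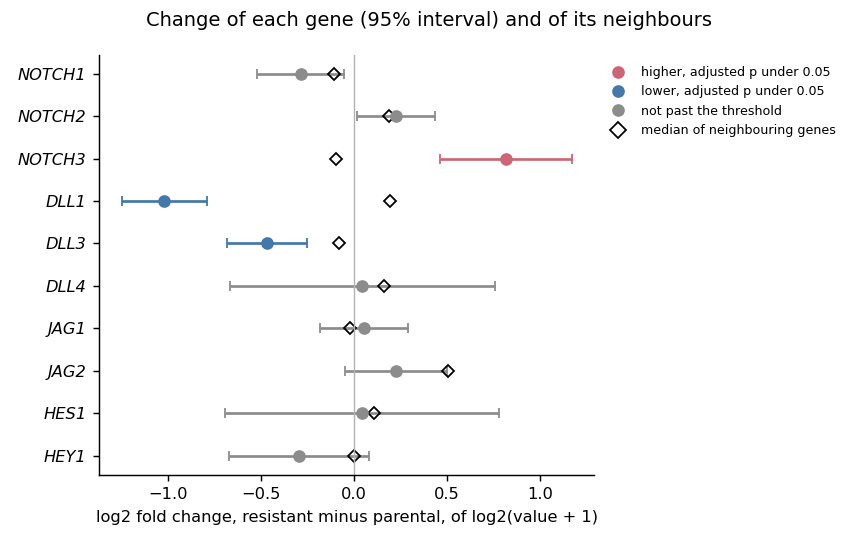
Log2 fold change of each gene (x axis, resistant minus parental on the log2(value + 1) scale) with its 95% interval, red where higher, blue where lower and grey where not past the threshold, and as open diamonds the median of up to 25 tested genes on each side of it. *DLL1*, *DLL3* and *NOTCH3* lie away from their neighbours, *NOTCH2* lies close to its neighbours and *JAG2* below them.

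Among the receptors, *NOTCH3* (ENSG00000074181, chromosome 19, 15159038 to 15200995) rose. Its normalized values were 850, 1404 and 1227 in parental and 1787, 2132 and 2105 in resistant libraries. All resistant libraries were above all parental libraries, and parental library 1 was the lowest of the 6. The mean went from 1160 ± 283 to 2008 ± 192 (SD, n = 3), a log2FC of 0.82 (SE 0.16, limma adjusted p = 0.0028). Without parental library 1 it was 0.61 (limma adjusted p = 0.0027), the smallest value of the 14 alternatives, and in the fit without an intensity trend the adjusted p was 0.031 by limma.

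*NOTCH1* (ENSG00000148400, chromosome 9, 136494433 to 136546048) had normalized values of 4351, 5342 and 5467 in parental and 3789, 4695 and 3943 in resistant libraries. Resistant library 8 lay above parental library 1, and the groups overlapped. The log2FC was -0.29 (SE 0.10, limma adjusted p = 0.054), and the gene passed without parental library 1 (limma adjusted p = 0.013) or without resistant library 8 (limma adjusted p = 0.022). It also passed at a minimum mean of 50 (limma adjusted p = 0.047). *NOTCH1* thus lay at the threshold, and its call turned on single libraries and on the filter.

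*NOTCH2* (ENSG00000134250, chromosome 1, 119911553 to 120100779) lay between 2037 and 2532 in parental and between 2474 and 2914 in resistant libraries. The log2FC was 0.23 (SE 0.09, limma adjusted p = 0.084), and the gene passed without parental library 2 (limma adjusted p = 0.046). The 50 nearest tested genes had a median of 0.19. The 4 *NOTCH2NL* copies in the table, human-specific partial duplicates of *NOTCH2*, summed to 27.5% of the *NOTCH2* value, not divided by length, in parental and 20.5% in resistant libraries. Reads may have been divided between these near-identical genes with error, so the value of *NOTCH2* is uncertain to that extent. None of the 4 copies was past the threshold.

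Both targets were low and neither was past the threshold. *HES1* (ENSG00000114315, chromosome 3, 194136148 to 194138732), the classical target of RBPJ, had normalized values of 32.6, 80.8 and 63.4 in parental and 47.8, 62.1 and 62.1 in resistant libraries. The parental libraries spanned the whole resistant range. The log2FC was 0.04 with a 95% interval from -0.69 to 0.78, and its sign turned without parental library 1, to -0.33. A change of *HES1* smaller than this interval was not detectable here.

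*HEY1* (ENSG00000164683, chromosome 8, 79762371 to 79767857), a bHLH repressor of the same family, had normalized values of 117, 125 and 113 in parental and 93.0, 100.2 and 96.4 in resistant libraries. The groups did not overlap, and the resistant mean was 81.4% of the parental mean. The log2FC was -0.29 (SE 0.17, limma adjusted p = 0.20). The result depended on how the spread was estimated, since *HEY1* passed in the fit without an intensity trend (limma adjusted p = 0.035).

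To rank the levels of different genes, values were divided by the length of the merged exons in kb. In parental cells *DLL3* was highest, with a normalized value per kb of 1444 ± 152 (SD, n = 3), followed by *DLL1* at 883 ± 94.7 and *JAG2* at 751 ± 99.5, which overlapped each other. *NOTCH1* came next at 403 ± 48.8, then *NOTCH2* at 139 ± 15.2 and *NOTCH3* at 123 ± 30.1, which again overlapped. *JAG1*, *HES1*, *HEY1* and *DLL4* followed at 71.6, 28.6, 21.6 and 5.42 per kb, and of these *HES1* and *HEY1* overlapped. The ligands *DLL3*, *DLL1* and *JAG2* thus exceeded every receptor, and both targets were below all 3 receptors.

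In resistant cells the order of the normalized values per kb was *DLL3* at 1046 ± 108 (SD, n = 3), *JAG2* at 882 ± 139, *DLL1* at 437 ± 52.0, *NOTCH1* at 331 ± 38.7, *NOTCH3* at 213 ± 20.4, *NOTCH2* at 162 ± 13.2, *JAG1* at 74.3, *HES1* at 27.8, *HEY1* at 17.6 and *DLL4* at 5.57. *DLL3* and *JAG2* overlapped, while every other pair of neighbours in the order was apart. *JAG2* and *DLL1* had changed places, and so had *NOTCH3* and *NOTCH2*. The order depended in part on the length used. Per kb of the longest transcript *NOTCH2* stayed ahead of *NOTCH3* in resistant cells, at 237 against 231, and these overlapped, as did *DLL1* at 441 and *NOTCH1* at 420.

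Shares within a library do not depend on how the libraries were scaled to each other. Of the summed value per kb of the 5 ligands, *DLL1* made up 31.8%, 23.6% and 29.0% in parental and 18.4%, 17.2% and 18.0% in resistant libraries. *JAG2* made up 21.9%, 25.6% and 23.7% in parental and 34.2%, 37.0% and 36.7% in resistant libraries. For both genes the groups did not overlap. The shares of *JAG1*, from 2.28% ± 0.326 to 3.06% ± 0.242, and of *DLL4*, from 0.171% ± 0.0316 to 0.228% ± 0.0296 (SD, n = 3), were also higher in every resistant library, although neither gene passed the test. A share rises when the rest of the sum falls, and *JAG2* itself was not past the threshold. The share of *DLL3* was similar, 45.7% ± 2.44 in parental and 42.8% ± 0.881 (SD, n = 3) in resistant libraries, and overlapped between groups. The sum of the 5 ligands per kb was 3155 ± 184 in parental and 2444 ± 301 (SD, n = 3) in resistant cells, with no overlap.

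Of the summed value per kb of the 3 receptors, *NOTCH3* made up 16.2%, 20.5% and 18.4% in parental and 29.7%, 29.2% and 31.9% in resistant libraries. *NOTCH1* made up between 58.7% and 62.1% in parental and between 44.8% and 48.3% in resistant libraries. *NOTCH2* made up 20.9% ± 0.821 in parental and 22.9% ± 0.441 (SD, n = 3) in resistant libraries. The shares of all 3 receptors were apart between the groups, while the sum per kb, 665 ± 92.1 in parental and 706 ± 67.7 (SD, n = 3) in resistant cells, overlapped between groups. These 3 shares depend on each other, and of the 3 genes only *NOTCH3* was past the threshold. *NOTCH4* was not part of the sum.

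**Figure D3:**
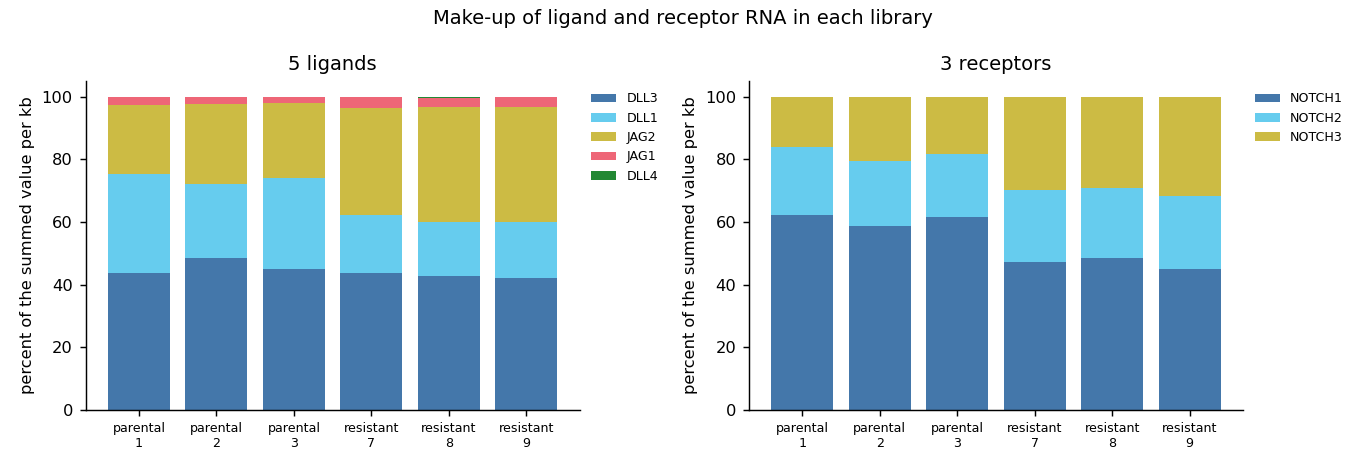
Share in percent (y axis) of each gene in the summed normalized value per kb of the 5 ligands (left) and of the 3 receptors (right), 1 bar per library. *JAG2*, *JAG1*, *DLL4*, *NOTCH3* and *NOTCH2* take a larger share in each resistant library than in any parental library, *DLL1* and *NOTCH1* a smaller one, and *DLL3* overlaps.

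The other genes of the pathway were taken from lists written by role, 65 genes in all, of which 60 were tested. Of these 15 rose and 13 fell, 46.7% in all against 37.7% of all genes tested, and their median log2FC was 0.11. With quantile normalization 20 rose and 11 fell. As the lists were small and the comparison changed many genes, the counts are given as a description.

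The bHLH repressors related to *HES1* and *HEY1* showed large changes in both directions. Of 9 such genes 5 were tested, and 2 rose and 2 fell, 80.0% of those tested against 37.7% of all genes tested. Over all genes tested, 9.95% passed with a log2FC of at least 1 in size. *HES6*, which is known to antagonize HES1 and to promote neuronal differentiation, had normalized values of 14635, 17203 and 16181 in parental and 8511, 8251 and 8499 in resistant libraries. The groups were far apart, and the log2FC was -0.92 (SE 0.07, limma adjusted p = 6.7e-06). *HES2* fell from 2037 ± 80.4 to 775 ± 68.9 (SD, n = 3), a log2FC of -1.40 (limma adjusted p = 2.5e-06).

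*HEYL*, a relative of *HEY1*, had normalized values of 154, 192 and 145 in parental and 388, 382 and 356 in resistant libraries. It rose by a log2FC of 1.20 (SE 0.14, limma adjusted p = 0.00015), with no overlap between groups. *HES4* rose from 152 ± 76.3 to 311 ± 29.0 (SD, n = 3), a log2FC of 1.14 (limma adjusted p = 0.0097), and its parental libraries ranged widely, from 97.5 to 239. The call of *HES4* was lost without the intensity trend (limma adjusted p = 0.051).

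*HELT* was between 4.68 and 21.6 in parental and between 15.5 and 40.2 in resistant libraries and did not pass (limma adjusted p = 0.080). *HEY2* and *HES7* were under the minimum mean of 10 and were not tested. *HEY2* had values of 0.917, 0 and 4.04 in parental and 12.9, 7.97 and 12.4 in resistant libraries, and *HES7* values of 0.512, 5.74 and 9.90 in parental and 12.7, 13.5 and 15.5 in resistant libraries. Both were low in every library, where 3 reads corresponded to a mean value of 2.83 in parental libraries and 3.16 in resistant ones. *HES3* was listed at 0 in all 6 libraries and *HES5* in all but resistant library 8, where it was at 1.04.

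**Figure D4:**
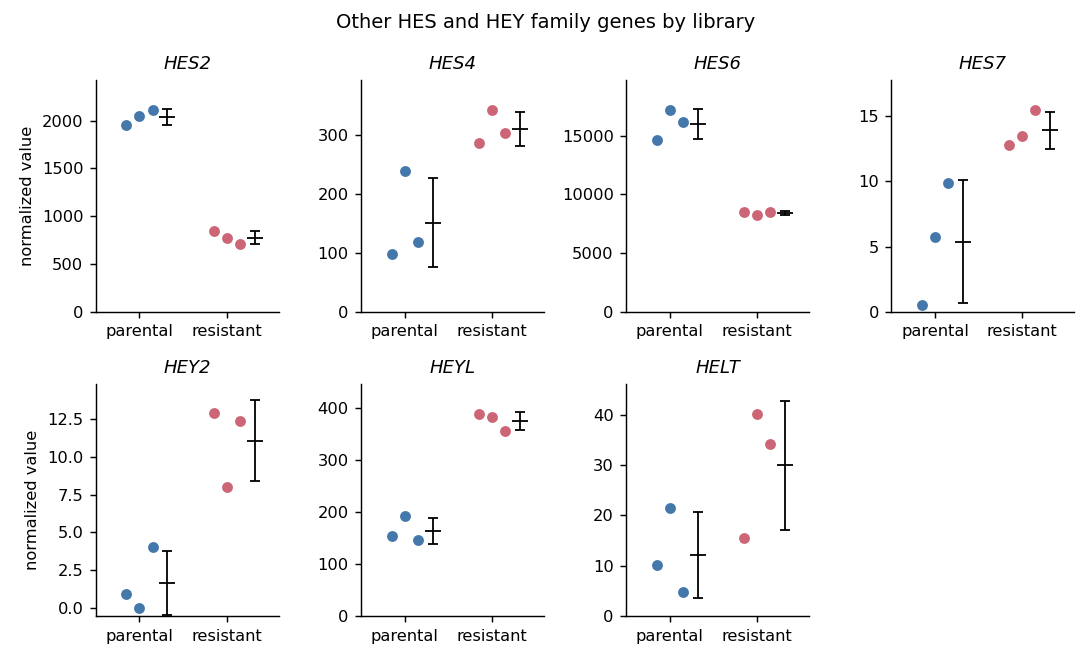
Normalized value (y axis, linear) of the other HES and HEY family genes in the 3 parental (blue) and 3 resistant (red) libraries, with the group mean and SD in black; *HES3* and *HES5*, at or near 0, are left out. *HES2* and *HES6* are lower and *HES4* and *HEYL* higher in every resistant library.

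RBPJ is known to bind the letters TGGGAA. Only exact matches to these letters were marked, so sites with other letters are not shown. To show where these letters stand in the genes described above, the 120 bases before the transcription start are given from RefSeq (GRCh38.p14), 5′ to 3′ on the strand of the gene, with TGGGAA in capitals on either strand. The windows are chr3:194136028-194136147 (plus strand) for *HES1*, chr1:1000098-1000217 (minus strand) for *HES4*, chr1:39639644-39639763 (minus strand) for *HEYL*, chr1:6419920-6420039 (minus strand) for *HES2* and chr2:238240039-238240158 (minus strand) for *HES6*.
HES1: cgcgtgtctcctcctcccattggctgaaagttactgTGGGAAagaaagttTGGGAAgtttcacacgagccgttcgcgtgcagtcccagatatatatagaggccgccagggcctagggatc
HES4: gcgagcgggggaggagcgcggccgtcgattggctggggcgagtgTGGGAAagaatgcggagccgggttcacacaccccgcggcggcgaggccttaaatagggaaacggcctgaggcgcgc
HEYL: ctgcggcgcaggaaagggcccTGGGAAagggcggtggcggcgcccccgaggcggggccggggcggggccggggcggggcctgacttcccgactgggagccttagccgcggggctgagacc
HES2: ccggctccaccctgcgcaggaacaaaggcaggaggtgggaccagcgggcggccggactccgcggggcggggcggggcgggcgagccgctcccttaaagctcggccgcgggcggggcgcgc
HES6: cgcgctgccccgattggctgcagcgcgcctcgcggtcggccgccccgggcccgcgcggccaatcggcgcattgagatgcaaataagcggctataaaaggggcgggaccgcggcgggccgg

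In *HES1* the matches began 84 and 70 bases before the start, in *HES4* 76 bases and in *HEYL* 99 bases before it, and *HES2* and *HES6* held no match in this window. Over the full window of 250 bases before to 50 after the start, *HES1* was the only 1 of 7 members in the table with a match, and 6 of the 9 other HES and HEY genes had one, against 24.03% of 35116 promoters. At least 2 matches were found in 3.80% of all promoters, 1 of the 7 members and 3 of the 9 other HES and HEY genes. These were *HES1* among the members and *HES5*, *HEY2* and *HEYL* among the others. The further match of *HEYL* began 178 bases before the start. *DLL1*, *DLL3* and *HEY1* are missing from the promoter table. For each named gene only the first promoter listed was read, while the share of all promoters counts every one listed. A match of letters is not a measured binding site.

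Among the steps before the nucleus, the cleavage machinery moved in both directions. Of 8 genes, 3 rose and 3 fell, 75.0% against 37.7% of all genes tested. Receptors are cut at the surface by ADAM10 or ADAM17, and *ADAM17* fell from 1543 ± 54.7 to 1259 ± 53.4 (SD, n = 3), a log2FC of -0.29 (limma adjusted p = 0.010), while *ADAM10* had one of 0.05 (limma adjusted p = 0.63). The second cut is made by γ-secretase. Of its subunits, *PSENEN* fell with a log2FC of -0.83 (limma adjusted p = 0.00036) and *APH1A* with one of -0.24. *NCSTN* rose with one of 0.20 and *APH1B*, the alternative to *APH1A*, with one of 0.68 (limma adjusted p = 0.00029). *APH1B* lay among neighbours with a median of 0.48, and with their shift taken off it was not past the threshold, at 0.20 (limma adjusted p = 0.12). The calls of *APH1A* and *NCSTN* were not stable. That of *APH1A* was lost without parental library 1 or 3 or resistant library 8 (adjusted p from 0.052 to 0.069 by limma), with quantile normalization (limma adjusted p = 0.080) and without the trend (limma adjusted p = 0.079). That of *NCSTN* was lost without parental library 2 or 3 or resistant library 7 or 9 (adjusted p from 0.083 to 0.13 by limma), without a filter (limma adjusted p = 0.060) and without the trend (limma adjusted p = 0.096).

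Of 5 genes for ligand endocytosis, *NEURL1B*, a ubiquitin ligase for Notch ligands, fell from normalized values of 5016, 5078 and 4827 to 1895, 2259 and 2102. The groups were far apart, with a log2FC of -1.26 (SE 0.07, limma adjusted p = 2.1e-06). Its surroundings on chromosome 5 were lower too: the median was -0.97 over the 20 nearest tested genes, of which 70.0% fell, and -0.26 over the 50 nearest. The other 4 endocytosis genes, *MIB1* and *MIB2* among them, were not past the threshold. Thus 20.0% of this list passed, against 37.7% of all genes tested. Of 9 genes for the sugars and the processing of receptors and ligands, 33.3% passed, against 37.7% of all genes tested. *EOGT*, which adds a sugar to EGF-like repeats, rose with a log2FC of 0.93 (limma adjusted p = 0.0066). *MFNG*, which extends the sugars on Notch, fell with one of -0.27 (limma adjusted p = 0.029), a call lost without parental library 2 or 3 or resistant library 7 or 9 (adjusted p from 0.071 to 0.096 by limma), with quantile normalization (0.074) and without the trend (0.084). *FURIN*, a protease that matures the receptors, fell with one of -0.31 (limma adjusted p = 0.0037), but lay among neighbours with a median of -0.61 and was past the threshold in the opposite direction once their shift was taken off, at 0.27 (limma adjusted p = 0.015).

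Of 8 genes of the nuclear complex, 3 rose and 1 fell, and *RBPJ* itself had a log2FC of 0.20 (limma adjusted p = 0.084). Of the Mastermind coactivators *MAML3* fell, *MAML2* rose and *MAML1*, with a log2FC of 0.23 (limma adjusted p = 0.089), was not past the threshold. *MAML3* had normalized values of 379, 394 and 420 in parental and 147, 214 and 154 in resistant libraries, a log2FC of -1.22 (limma adjusted p = 0.00026), and *MAML2* rose from 96.5 ± 34.6 to 204 ± 25.8 (SD, n = 3), one of 1.14 (limma adjusted p = 0.0077). *SNW1* and *EP300*, a further pair of coactivators, rose by 0.41 and 0.34 on the log2 scale. With the shift of its neighbours on chromosome 14 taken off, *SNW1* was at 0.12 (limma adjusted p = 0.32), and *EP300* was not past the threshold without parental library 2, resistant library 7 or resistant library 8 (adjusted p from 0.089 to 0.10 by limma) or without the trend (0.10).

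Of 12 corepressor genes 4 rose and 2 fell. The rises with the smallest p were those of *TLE4*, *KDM5A* and *TLE3*, with log2FC values of 0.76, 0.65 and 0.38, and *HDAC1* was among the falls, with -0.38. *TLE3* lay among neighbours with a median of 0.33, and with their shift taken off it was at 0.06 (limma adjusted p = 0.55). Of 10 negative regulators, *DTX4* rose by 0.39 on the log2 scale, and *DTX3* and *NUMBL* fell, with log2FC values of -0.52 and -0.66. That is 30.0% of this list, against 37.7% of all genes tested. *DTX3* was at 0.06 with the neighbours' shift taken off. *NUMBL*, with an adjusted p of 0.049 by limma, was not past the threshold without parental library 2 or 3 or resistant library 7 or 9 (adjusted p from 0.11 to 0.17 by limma), nor with a pseudocount of 0.1, no filter, no trend or the neighbours' shift taken off (0.052 to 0.13), and its groups overlapped. *NRARP*, a feedback inhibitor that Notch itself induces, was not past the threshold, with a log2FC of 0.19 (limma adjusted p = 0.31).

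Of the remaining receptor and ligand genes, *DLK2*, a Delta-like protein without the receptor-binding domain of the classical ligands, rose from normalized values of 19.8, 29.5 and 23.9 to 103.7, 131 and 134. All resistant libraries were above all parental libraries, with a log2FC of 2.30 (SE 0.25, limma adjusted p = 8.1e-05), the largest among the tested pathway genes. *NOTCH4* and *DNER* were not past the threshold, and *DLK1* was listed at 0 in every library. The fibroblast markers summed to between 144 and 192 in parental and between 385 and 627 in resistant libraries, alongside the rises of *NOTCH3* and *HEYL*. Most of that sum came from *COL1A1* and *COL1A2*, the 2 that rose of 3 tested fibroblast markers. The third, *COL3A1*, went from 18.0 ± 7.07 to 10.6 ± 4.33 (SD, n = 3), not past the threshold (limma adjusted p = 0.25). *DCN* did not exceed 3.11 and *LUM* 13.0 in any library. *PDGFRB*, which was not tested, had values of 10.0, 1.53 and 0.769 in parental and 9.92, 3.29 and 27.5 in resistant libraries. Its groups overlapped. The part of the fibroblast markers in the rises of *NOTCH3* and *HEYL* was not tested.

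**Figure D5:**
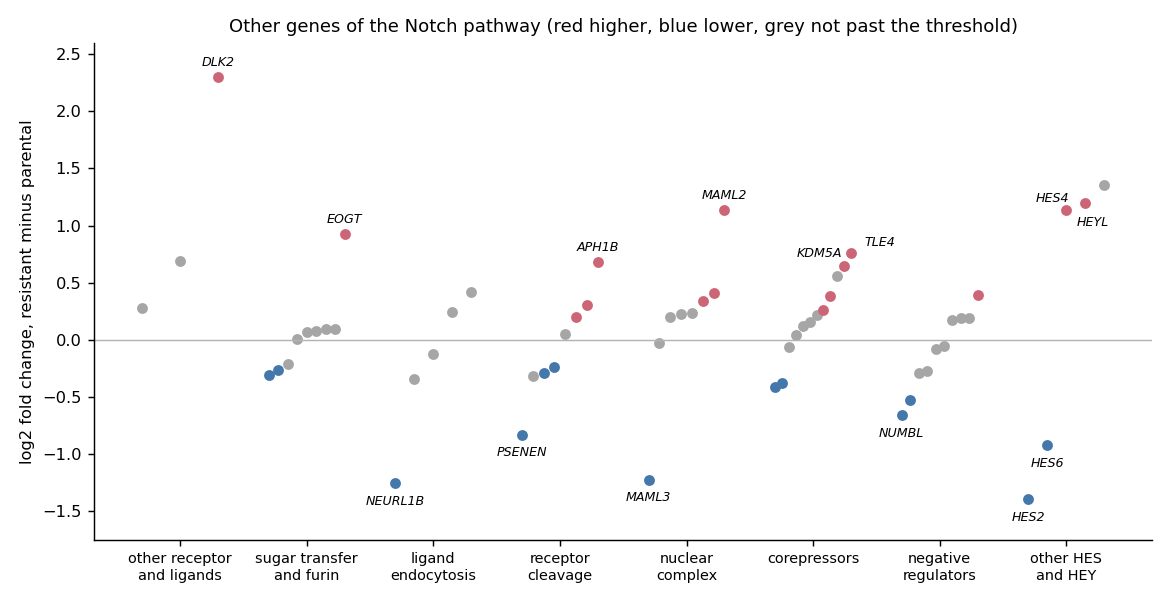
Log2 fold change (y axis, resistant minus parental) of the 60 other tested pathway genes by role (x axis), red where higher and blue where lower at an adjusted p under 0.05 by limma, and grey otherwise. Genes that passed with an absolute change over 0.6 are named, from *HES2* at -1.40 to *DLK2* at 2.30.

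The genes whose log2 values were most like those of *DLL1* over the 6 libraries, outside the 10 genes, were *RANGRF*, *ADAM17*, *SLC35B2*, *ODF2L* and *SLC11A2*, with Pearson correlations between 0.9965 and 0.9997. With 6 libraries in 2 separate groups such values are common, and 1031 of 16337 genes had one above 0.95.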

How the data were processed

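RNA from 3 parental and 3 onvansertib-resistant H526 libraries was compared. The authors trimmed reads with Trimmomatic 0.38, aligned and counted them with RSEM 1.3.1 on GRCh38 with Gencode v43, and deposited the gene counts after DESeq2 normalization (version 1.30.0 in the submitters' processing notes), a signal that is never negative. Among low values, up to 5 reads, the share lying within 0.05 reads of a whole read was 53.6% to 64.9%, so reads were not recovered and a count test, as in the study, was not run. The limit of 3 reads covers counting error only. The 47 second copies of pseudoautosomal genes, equal to the first, were left out, and 62639 of 62710 rows matched Gencode v44 (GRCh38), which gave symbols, positions and exon lengths.

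Using limma 3.58.1 in R 4.3.3, log2(value + 1) was fitted for genes with a mean of at least 10, with an intensity trend and condition as the only term; the fit was tested on simulated data first. Other steps used Python 3.11.15. The alternatives changed the pseudocount (0.1 or 10), the filter (none, or a mean of 50), the scaling (TMM or quantile) or the trend (none), and added removal of the median shift of 25 neighbours on each side, and each library left out. Named genes were the 10 members, of each other list up to 3 genes per direction with the smallest p among those past the threshold, and 5 genes most like the member with the smallest p. Genes named beyond this rule, the promoters shown and the shares of ligands and receptors, were chosen after their values were seen. Some genes of the lists are counted but not reported here by name. The members and lists were chosen with earlier results of these data known.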

Additional observations from a re-analysis of the deposited data

How the results depend on the processing

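*DLL1*, *DLL3* and *NOTCH3* kept their direction and stayed past the threshold under all 14 alternatives of the fit, with log2 fold changes from -1.20 to -0.95, from -0.55 to -0.38 and from 0.61 to 0.97. The number of members past it was 3 or 4. Genes that were not past it changed sign: *DLL4* was at -0.19 with quantile normalization and -0.11 with local median centring, *HES1* at -0.13 and -0.053 in the same settings, and *JAG2* at -0.19 with local median centring. With 1 library left out, *DLL4* ranged from -0.091 to 0.21, *JAG1* from -0.029 to 0.11 and *HES1* from -0.33 to 0.32. Of the 28 other pathway genes that passed, 14 kept call and direction throughout, and 4 changed sign, all with local median centring, among them *FURIN* (0.27) and *DTX3* (0.061). *HEY2*, untested in the main analysis, passed without a filter (log2 fold change 2.48, adjusted p = 0.021 by limma). The number of genes past the threshold over all genes ranged from 4784 to 6228, against 6161, and was lowest without resistant library 8. At a filter of 50 *DLL4* dropped out. The paper calls its parental and resistant cells matched and took RNA from both at 3 separate times. No paired analysis was possible because the groups share no replicate numbers, so libraries from RNA taken at the same time cannot be matched. Depth limits genes with low values, such as *HES1*, *DLL4*, *HEY2* and *HES7*.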
